A study of Mus musculus with 2 samples.

Results

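The 10 genes Rnf2, Ring1, Bmi1, Pcgf1, Pcgf2, Pcgf3, Pcgf5, Pcgf6, Scml2 and Ezh2 code for subunits of the Polycomb repressive complexes and were followed across the germ cells and Leydig cells of the mouse testis. They were taken by name, without use of their values, from the 40184 gene columns of the young and the 39087 of the aged library, and all 10 were present in both. Single cells were measured with the BD Rhapsody system in a young library (mice of 2 months) and an aged library (mice of 24 months), 1 of each. Mice were anaesthetised with Avertin, testes were freed of their capsule, minced and digested with accutase, and neither genotype, strain, any other treatment nor the number of animals per library was given in the sources used here. The labels call the cells stroma, but most of them carried germ cell markers.

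Polycomb group proteins keep genes silent through modified histones. PRC2, with Ezh2 or its relative Ezh1 as the catalytic subunit, methylates histone H3 at lysine 27, and PRC1, with Rnf2 (RING1B) or Ring1 as its ubiquitin ligase, marks histone H2A. Each PRC1 holds 1 of 6 Pcgf proteins: Pcgf2 or Bmi1 (Pcgf4) in canonical PRC1, which binds the methyl mark through Cbx proteins, and Pcgf1, Pcgf3, Pcgf5 or Pcgf6 in variant complexes. In the mouse germ line, PRC1 and its germ cell partner Scml2, coded on the X chromosome, act in the silencing of somatic genes, and the X chromosome itself is silenced in mid-meiosis.

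After filtering, 2732 young and 5691 aged cells were analysed, and 35 cell numbers occurred in both libraries. With 1 library per age no test and no standard error can be given. For each class and library all counts were added up, and a gene's level is given as CPM, counts per 1000000 of that total. Brackets hold exact 95% intervals, from the Poisson distribution for CPM, conditional binomial for ratios and by Clopper-Pearson for shares. They cover counting error only. Where a pair of values is given, the young library comes first. A gene is called higher or lower by size alone, at 1.5-fold or more with at least 10 counts in the 2 groups compared. Early spermatocyte-like cells numbered 21 young and 486 aged, late spermatocyte-like cells 752 and 2102, round spermatid-like cells 512 and 860, elongating spermatid-like cells 58 and 246, and Leydig-like cells 1089 and 576.

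The class names were checked against marker genes. The synaptonemal complex gene Sycp1 was at 504 CPM in early spermatocyte-like cells of the young library, at 673 CPM in those of the aged one, and at 94.4 CPM or less among the other young classes. Of the 20 early markers, the recombination genes Dmc1 and Rad51ap2 were at 0 in the 21 young early cells. The acrosome gene Acrv1 was at 1008 and 1035 CPM in round spermatid-like cells, the protamine gene Prm1 at 50158 and 50229 CPM in elongating spermatid-like cells, and the steroid hydroxylase gene Cyp17a1 at 10515 and 6632 CPM in Leydig-like cells. Germ cells were also described by cluster, in the order 19, 7 (early), 4, 2, 0, 9 (late), 3, 10, 12, 14 (round), 17 and 11, which follows the marker scores of each stage. Cluster 19 held 62 aged and 0 young cells, with a median of 1788.5 counts. Its early spermatocyte score was the highest of all clusters, at 2.72 against 1.17 in cluster 7. Whether it is a stage or a feature of that library was not tested. Cluster 7 made up the rest of the early class, with 21 young and 424 aged cells. Cluster 17 (46 young, 71 aged cells) scored highest for elongating spermatids. Its 10 leading genes held 1 round spermatid marker, Cst13, and 0 elongating ones, so it stays outside the named classes. The elongating class is thus cluster 11.

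Promoters of 4 members are shown because their transcripts followed different courses: Pcgf5, Pcgf6 and Rnf2 were highest in early spermatocytes, and Bmi1 in elongating spermatids. Sequences run from 250 bases before to 50 after the transcription start as given by RefSeq (GRCm38.p6), and 9 of the 10 members had an entry. Capitals mark matches on either strand to the E-box CACGTG, to which Max dimers bind, or to TGACG, the core of the site for CREM, a transcription factor of spermatids. These are Pcgf5 at chr19:36348079-36348378 (plus strand, the first of its 3 promoters), Pcgf6 at chr19:47050857-47051156 (minus), Rnf2 at chr1:151500942-151501241 (minus) and Bmi1 at chr2:18676768-18677067 (plus).
Pcgf5: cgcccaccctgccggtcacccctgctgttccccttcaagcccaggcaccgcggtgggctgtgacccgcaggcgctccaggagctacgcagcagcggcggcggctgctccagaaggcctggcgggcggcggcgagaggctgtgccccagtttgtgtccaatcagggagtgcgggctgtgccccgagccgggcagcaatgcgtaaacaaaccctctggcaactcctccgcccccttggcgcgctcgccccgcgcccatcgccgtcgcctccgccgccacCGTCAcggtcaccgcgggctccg
Pcgf6: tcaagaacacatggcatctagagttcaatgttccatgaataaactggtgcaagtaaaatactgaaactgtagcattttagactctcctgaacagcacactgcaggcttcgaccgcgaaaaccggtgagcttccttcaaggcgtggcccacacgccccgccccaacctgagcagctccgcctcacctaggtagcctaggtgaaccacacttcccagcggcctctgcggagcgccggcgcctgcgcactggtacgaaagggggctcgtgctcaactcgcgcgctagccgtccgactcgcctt
Rnf2: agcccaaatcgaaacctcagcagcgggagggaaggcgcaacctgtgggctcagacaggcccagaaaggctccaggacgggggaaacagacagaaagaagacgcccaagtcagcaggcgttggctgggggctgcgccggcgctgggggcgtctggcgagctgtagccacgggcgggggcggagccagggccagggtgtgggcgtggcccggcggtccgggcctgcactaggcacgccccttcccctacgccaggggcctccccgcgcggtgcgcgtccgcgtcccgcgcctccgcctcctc
Bmi1: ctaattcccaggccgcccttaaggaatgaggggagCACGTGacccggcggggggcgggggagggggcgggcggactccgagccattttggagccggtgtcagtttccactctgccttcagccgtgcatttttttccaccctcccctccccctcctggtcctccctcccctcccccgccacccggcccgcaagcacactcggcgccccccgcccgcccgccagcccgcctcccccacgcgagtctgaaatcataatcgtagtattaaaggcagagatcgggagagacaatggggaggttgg
The Bmi1 window held an E-box 215 bases before the start, as 7.15% of the 32851 promoters in the table did. The Pcgf5 window held TGACG on the opposite strand 27 bases after the start, a motif found in 20.8% of all promoters. The Pcgf6 and Rnf2 windows held neither of these letters nor TTCCCGC, an E2F-type motif of 4.60% of promoters, and no pair of matches shared bases. GC content was 73.0% for Pcgf5, 57.7% for Pcgf6, 72.7% for Rnf2 and 66.3% for Bmi1, against a median of 52.7% over all promoters. A match describes the letters and not a bound site.

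**Figure D1:**
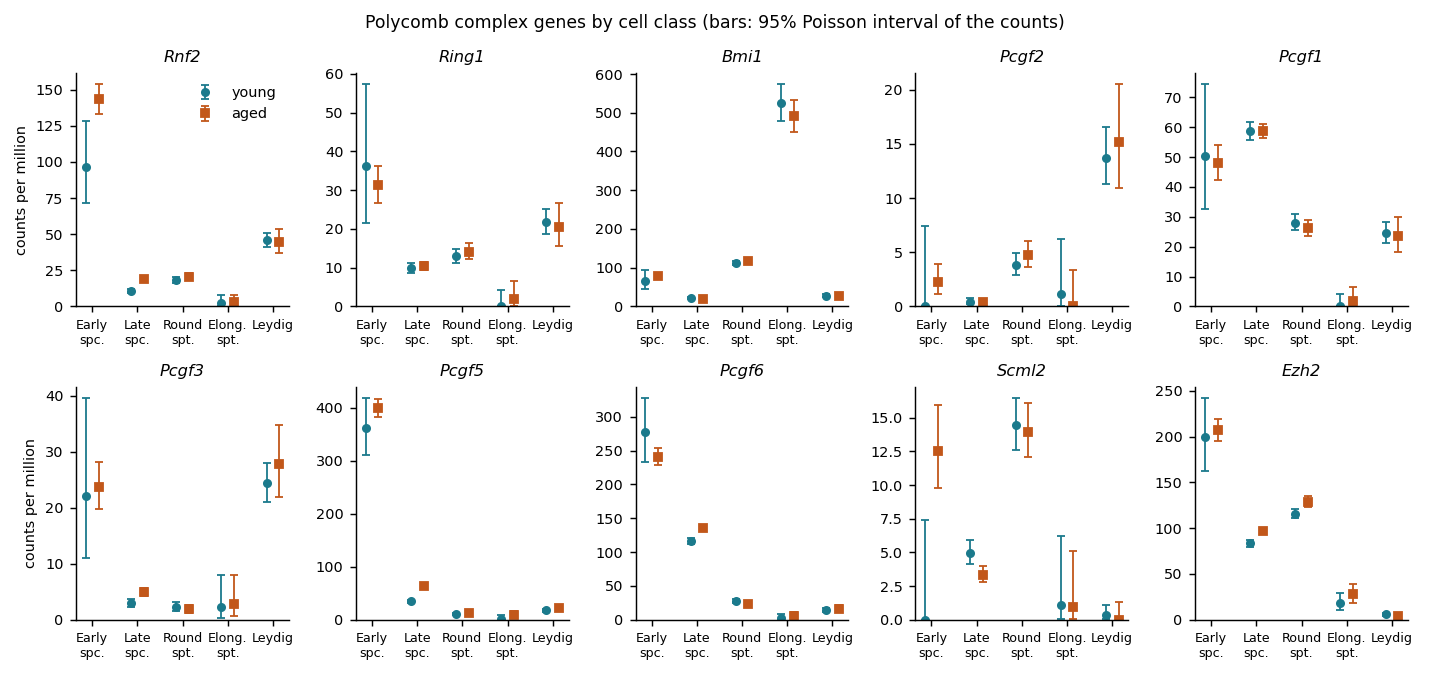
Levels of the 10 genes in CPM (vertical axes, each from 0) in the 5 cell classes of the young (circles) and aged (squares) library; bars are exact 95% Poisson intervals. Pcgf5, Pcgf6 and Rnf2 stand highest in early spermatocytes (spc.), Bmi1 in elongating spermatids (spt.), and Pcgf2 in Leydig cells.

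Of the ubiquitin ligases of PRC1, both were at their germ cell maximum in early spermatocytes. Rnf2, the main ligase, was at 96.7 CPM (71.3 to 128) in young early cells and 143 CPM (133 to 154) in aged ones, and at 10.6 and 18.7 CPM in late spermatocytes. This was 9.12-fold lower (6.56 to 12.5) in the young library and 7.66-fold lower (6.91 to 8.49) in the aged one. In round spermatids Rnf2 was at 18.2 and 20.5 CPM, in elongating spermatids at 2.23 and 2.76 CPM, on 2 and 3 counts, and in Leydig cells at 46.0 and 44.8 CPM. The round class average hid a second maximum. Along the clusters Rnf2 was at 5.86 and 4.63 CPM in cluster 9, the last of the late spermatocytes, at 46.4 and 42.9 CPM in round cluster 12, at 39.7 and 48.4 CPM in cluster 14, and at 2.23 and 2.76 CPM in cluster 11. Both libraries had the lowest value before cluster 11 in cluster 9, on 20 and 15 counts, with intervals that overlapped those of clusters 0 and 3. Both also showed a second high stretch over clusters 12 and 14, whose intervals overlapped in each library. Rnf2 shares 158 bases with Trmt1l on the opposite strand, and whether counting used strand is not given in the sources used here.

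Ring1, the other ligase, had a narrower range. It was at 36.3 CPM (21.5 to 57.3) in young early cells and 31.2 CPM (26.7 to 36.3) in aged ones, at 9.82 and 10.5 CPM in late spermatocytes, at 13.0 and 14.1 CPM in round spermatids and at 21.7 and 20.6 CPM in Leydig cells. In elongating spermatids it had 0 of 897690 young counts, which allows up to 3.34 CPM at 3 counts and 4.11 CPM by the exact interval, and 2 aged counts. Its peak among later cells came earlier than that of Rnf2, at 30.5 and 25.03 CPM in cluster 9. By value, Ring1 thus had its second maximum in the cluster where Rnf2 was lowest before cluster 11, with the overlap of Rnf2 intervals given above.

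Among the variant PRC1 subunits, Pcgf5 had the widest range. Pcgf5 was at 363 CPM (312 to 420) in young early cells and 400.04 CPM (383 to 417) in aged ones, at 34.5 and 63.2 CPM in late spermatocytes, at 10.7 and 12.9 CPM in round spermatids, at 2.23 and 9.19 CPM in elongating spermatids, and at 17.6 and 21.3 CPM in Leydig cells. The step from early to late spermatocytes was 10.5-fold lower (8.89 to 12.3) in the young library and 6.33-fold lower (5.97 to 6.71) in the aged one. By cluster, its level was lower at each step from cluster 7 to cluster 12 in both libraries, with 99.1 and 131 CPM in cluster 4 and 40.9 and 49.1 CPM in cluster 2. Reads of Pcgf5 can be shared with overlapping gene models, of which the pseudogene Gm9042 had the most counts, 26 young and 53 aged in all cells.

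Pcgf3, which forms the same kind of complex as Pcgf5, followed a different order. It was at 22.2 CPM (11.1 to 39.6) in young early cells and 23.7 CPM (19.7 to 28.1) in aged ones, at 2.92 and 4.91 CPM in late spermatocytes, at 2.20 and 1.82 CPM in round spermatids, and at 24.3 and 27.8 CPM in Leydig cells. Elongating spermatids had 2 and 3 counts of it. Early spermatocytes and Leydig cells did not differ beyond their intervals, while every class between them was lower.

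Pcgf6, the subunit of the PRC1 form that holds Mga, Max, L3mbtl2 and E2f6, was at 278 CPM (234 to 328) in young early cells and 241 CPM (228 to 255) in aged ones. It was at 116 and 135 CPM in late spermatocytes, at 27.6 and 23.6 CPM in round spermatids, at 2.23 and 5.51 CPM in elongating spermatids, and at 14.5 and 16.3 CPM in Leydig cells. Its level thus stayed higher for longer than that of Pcgf5. From early to late cells it was 2.39-fold (2.00 to 2.84) and 1.78-fold lower (1.68 to 1.89), and from late cells to round spermatids 4.21-fold (3.80 to 4.67) and 5.72-fold lower (5.12 to 6.42).

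Pcgf1, the subunit that pairs with Bcor and the CpG-binding Kdm2b, was within 1.5-fold between early and late spermatocytes. It was at 50.4 and 47.9 CPM in early cells, at 58.7 and 58.7 CPM in late spermatocytes, at 28.0 and 26.1 CPM in round spermatids and at 24.5 and 23.5 CPM in Leydig cells. In elongating spermatids it had 0 young and 2 aged counts. Its level was 2.09-fold (1.88 to 2.34) and 2.25-fold lower (2.01 to 2.52) in round spermatids than in late spermatocytes.

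Of the canonical subunits, Bmi1 went the other way. It was at 66.5 CPM (45.8 to 93.4) in young early cells and 79.1 CPM (71.8 to 87.0) in aged ones, at 21.8 and 18.7 CPM in late spermatocytes, at 112 and 116 CPM in round spermatids, at 525 CPM (478 to 574) and 490.5 CPM (450 to 534) in elongating spermatids, and at 27.2 and 26.0 CPM in Leydig cells. Round over late was 5.15-fold (4.67 to 5.69) in the young library and 6.20-fold (5.67 to 6.78) in the aged one, and elongating over round 4.67-fold (4.21 to 5.17) and 4.23-fold (3.83 to 4.67). The lowest point lay in cluster 2, at 8.01 and 8.96 CPM, followed by 10.6 and 9.56 CPM in cluster 0 and 89.6 and 76.6 CPM in cluster 9. Its level lay between 93.6 and 124 CPM from cluster 3 to cluster 12, at 205 and 198 CPM in cluster 14 and at 401 and 314 CPM in cluster 17.

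CPM gives a share of the transcripts of a cell, and cells of cluster 11 held few, with a median of 12468.5 counts in the young library and 3845.5 in the aged one. In counts per cell, young cells held 5.60 in cluster 14, 9.59 in cluster 17 and 8.12 in cluster 11, and aged cells 2.52, 4.21 and 2.17. The level per cell was thus higher in cluster 17 than in cluster 14 and no higher in cluster 11 than in cluster 17, while its CPM was highest in cluster 11. Commd3, which ends 786 bases before Bmi1 on the same strand, was at 109 and 124 CPM in cluster 17 but at 53.5 and 24.8 CPM in cluster 11, where Bmi1 was highest. In CPM the neighbours thus went in opposite directions at this last step. In counts per cell both were lower in cluster 11, with 2.61 and 1.66 counts of Commd3 per cell in cluster 17 and 0.83 and 0.11 in cluster 11.

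**Figure D2:**
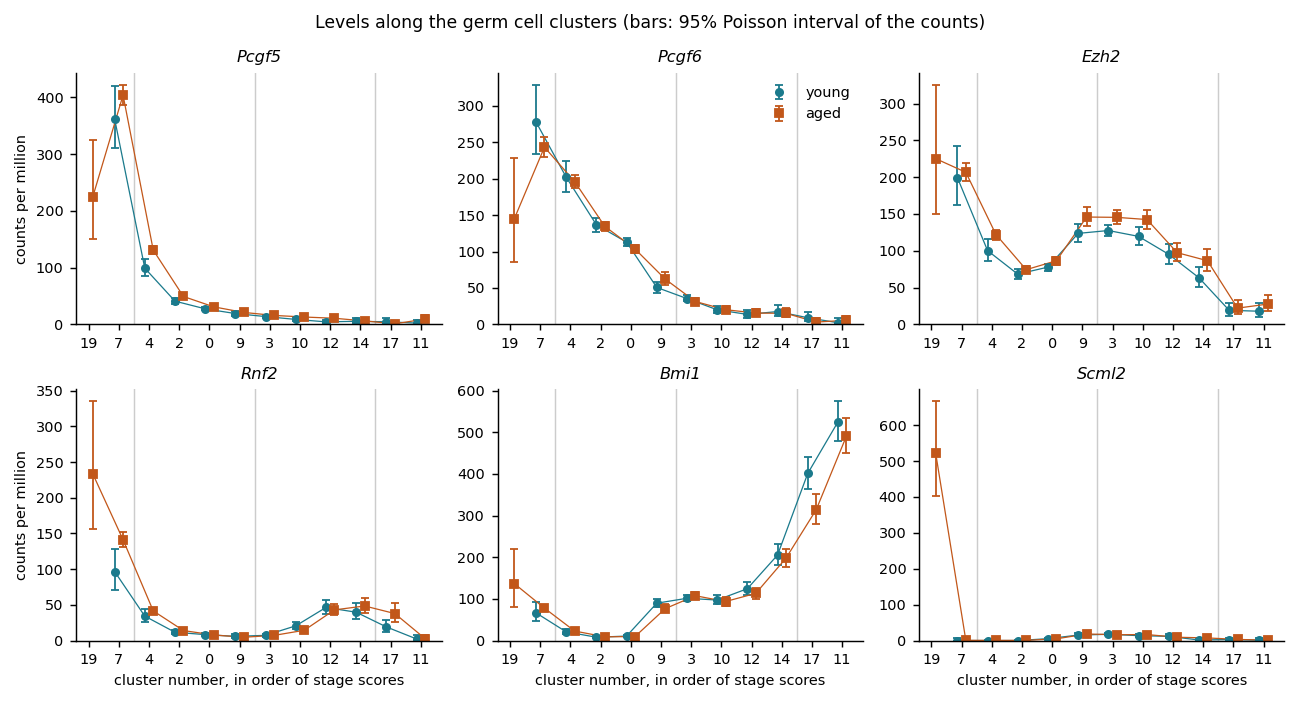
Levels in CPM (vertical axes, each from 0) of 6 genes in the germ cell clusters, ordered by stage scores from early spermatocytes at the left to elongating spermatids at the right, in the young (circles) and aged (squares) library; bars are exact 95% Poisson intervals and grey lines separate early, late, round, and later clusters. Pcgf5 and Pcgf6 go down from cluster 7, Bmi1 has its low point in clusters 2 and 0, and Rnf2 has a second peak in clusters 12 and 14.

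Pcgf2 (Mel18), the other canonical subunit, was higher in Leydig cells than in the 4 germ classes compared. It had 0 young and 12 aged counts in early cells (2.22 CPM in the aged library), was at 0.411 and 0.425 CPM in late spermatocytes and at 3.81 and 4.73 CPM in round spermatids, and had 1 and 0 counts in elongating spermatids. Leydig cells held 13.7 CPM (11.3 to 16.6) and 15.2 CPM (10.9 to 20.5), which was 8.09-fold (5.94 to 11.1) and 9.45-fold (6.40 to 13.8) the level over the germ classes together. Among round spermatids it was highest in clusters 10 and 12, with 6.38 and 7.18 CPM in cluster 10 and 5.37 and 8.35 CPM in cluster 12.

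Scml2, which recruits PRC1-linked factors in germ cells, was nearly absent from part of the spermatocytes. Cluster 19, in the aged library alone, held 65 counts of Scml2 or 523 CPM (403 to 666). Over clusters 7, 4 and 2 together it had 0 of 8088612 young counts, which allows up to 0.371 CPM at 3 counts and 0.456 CPM by the exact interval, and 13 of 27916427 aged counts, or 0.466 CPM (0.248 to 0.796). It was then at 5.17 and 4.82 CPM in cluster 0, at 15.2 and 18.2 CPM in cluster 9, at 17.4 and 16.2 CPM in cluster 3 and at 1.11 and 0.92 CPM in cluster 11. By class this gave 0 and 12.6 CPM in early cells, 4.97 and 3.34 CPM in late spermatocytes, 14.5 and 13.96 CPM in round spermatids, and 3 and 0 counts in Leydig cells.

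The course of Scml2 ran beside that of the X chromosome as a whole. The 1832 X-linked genes gave 2.27% of all counts in cluster 19, 0.080% and 0.065% in cluster 7, 0.050% and 0.040% in cluster 2, 0.081% and 0.076% in cluster 0, and 0.479% and 0.458% in cluster 9. Their share was 0.728% and 0.756% in cluster 3 and 1.77% and 1.73% in cluster 11. Of the other 5 X-linked genes among the Polycomb genes and their opponents, Bcorl1, a corepressor of the Pcgf1 complex, was at or under 0.592 CPM from cluster 7 to cluster 0, at 8.79 and 8.03 CPM in cluster 9 and at 23.9 and 25.8 CPM in cluster 12. Rbbp7, a histone-binding subunit of PRC2, was at 121 CPM in cluster 19, at 4.03 CPM or less in clusters 7 to 9, and at 3.43 and 1.31 CPM in round spermatids. Kdm6a, a demethylase of the PRC2 mark, was at 121 CPM in cluster 19 and at 1.82 CPM or less in each later germ cell cluster.

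**Figure D3:**
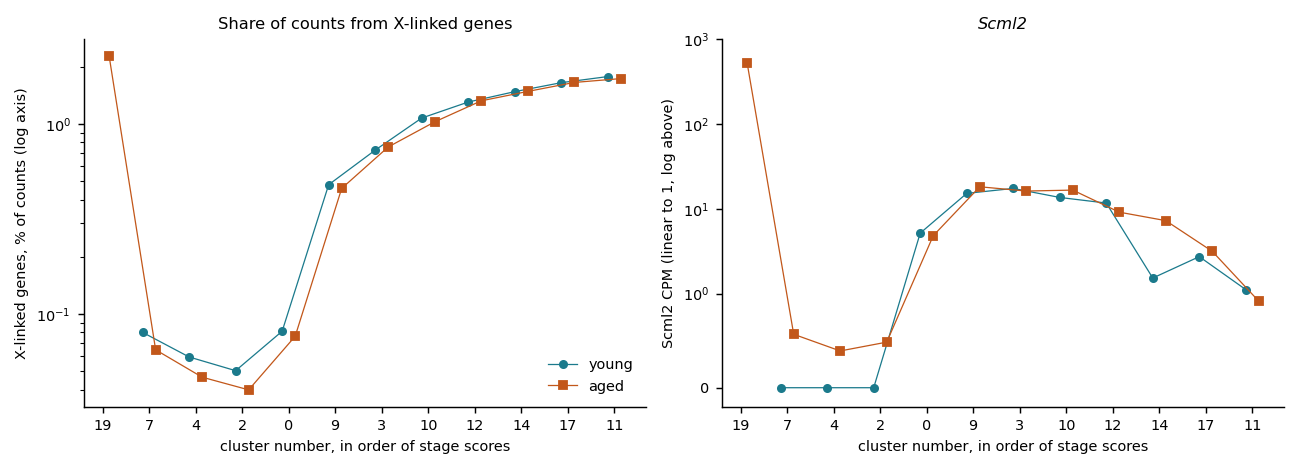
Left, share of all counts that come from X-linked genes (percent, log axis), and right, Scml2 in CPM (axis linear to 1 and logarithmic above), in the germ cell clusters in order of stage scores, young (circles) and aged (squares). Both are highest in cluster 19, lowest in clusters 7, 4 and 2, and higher again from cluster 9, while Scml2 then declines and the X-linked share does not.

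Ezh2, the catalytic subunit of PRC2, was at 199 CPM (162 to 243) in young early cells and 207 CPM (195 to 220) in aged ones, at 83.5 and 97.2 CPM in late spermatocytes, at 116 and 129 CPM in round spermatids and at 17.8 and 27.6 CPM in elongating spermatids. It had a low point in cluster 2 (68.2 and 74.3 CPM) and a second plateau from cluster 9 to cluster 10 (120 to 146 CPM over both libraries). In Leydig cells it was at 5.80 CPM (4.25 to 7.73) and 4.34 CPM (2.24 to 7.57), 16.5-fold (12.3 to 22.6) and 26.2-fold (14.996 to 50.8) below the germ classes together. Free RNA touches this value. Protamine and transition protein transcripts, which Leydig cells do not make, stood there at 11.2% and 6.43% of their level in the library. Once a free RNA profile at those shares was taken off, no Ezh2 was left in Leydig cells. The log2 ratios to germ cells of -7.85 and -6.63 then stand at the floor of 3 counts and are limits set by depth. At this depth the Ezh2 counts of Leydig cells cannot be told apart from free RNA. Other members with high germ cell and low Leydig levels, such as Pcgf6, can hold free RNA there too.

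Counted by step, 0 of 10 members were higher and 7 lower in late than in early spermatocytes in both libraries, where 14.1% and 24.9% of 16725 genes were so called. In round spermatids against late spermatocytes 3 were higher (Bmi1, Pcgf2 and Scml2) and 3 lower (Pcgf1, Pcgf5 and Pcgf6), against 34.2% and 31.9% of 19857 genes. In elongating against round spermatids 1 was higher (Bmi1) and 7 lower, against 10.1% and 46.5% of 16386 genes. In Leydig cells against the germ classes 3 were higher (Pcgf2, Pcgf3 and Ring1) and 6 lower, against 29.3% and 39.0% of 21930 genes. The median log2 ratio of the members over the libraries was -1.46, 0.43, -2.46 and -1.10 at these steps, and that of all genes -0.11, -0.17, -0.80 and -0.49.

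The 17 elongating markers summed to 193408 and 189160 CPM in elongating spermatids, and the 11 Leydig markers to 33471 and 24756 CPM in Leydig cells. The median gene also shifted between classes, and what lay behind this was not tested. Scaled by the median of ratios, the shift at the step to elongating spermatids was -1.51 and -1.54 log2 units, at the step to round spermatids -0.22 and -0.32, and between Leydig and germ cells -0.98 and -0.74. Relative to the median gene, Bmi1 was 3.73 and 3.62 log2 units higher in elongating than in round spermatids, and Ezh2 1.20 and 0.69 lower. Pcgf1 and Pcgf5, lower in Leydig than in germ cells by CPM, were at 0.07 and 0.27 in the young library on this scale, so their direction there depends on the scaling.

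The pairs Bmi1 with Pcgf2, Pcgf5 with Pcgf3 and Ezh1 with Ezh2 had a different balance in Leydig cells and in spermatocytes and round spermatids. The Leydig balance of Ring1 with Rnf2, given below, lay within the range of the germ classes. Such shares of the counts of a pair do not depend on the scaling, but are not per length. Bmi1 made up 66.5% (61.0 to 71.6) and 63.2% (53.6 to 72.0) of the Bmi1 and Pcgf2 counts in Leydig cells and 96.1% or more in each of these germ classes. The aged spermatogonia-like cells described at the end are outside these classes, and there Pcgf2 stood nearer to Bmi1. Pcgf5 made up 42.0% (36.7 to 47.5) and 43.4% (34.9 to 52.1) of the Pcgf5 and Pcgf3 counts in Leydig cells. Its share was 94.2% and 94.4% in early, 92.2% and 92.8% in late spermatocytes and 82.9% and 87.7% in round spermatids. Elongating spermatids held only 4 and 13 counts of this pair. Macrophage-like cluster 13 held 10 and 15 counts of Pcgf5 and 15 and 20 of Pcgf3, so the Leydig balance was not particular to Leydig cells. Ezh1, the relative of Ezh2 known from non-dividing tissue, made up 85.4% (81.0 to 89.1) and 89.7% (82.8 to 94.6) of the Ezh1 and Ezh2 counts in Leydig cells. It made up 14.7% and 15.7% in early and 13.9% and 14.4% in late spermatocytes, and 4.32% (3.44 to 5.34) and 2.42% (1.77 to 3.24) in round spermatids. The Leydig share of Ezh1 rests on Ezh2 counts that cannot be told apart from free RNA, which its interval does not cover.

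Ring1 made up 27.3% (17.0 to 39.6) and 17.9% (15.5 to 20.5) of the Ring1 and Rnf2 counts in early cells, 48.1% (43.6 to 52.6) and 35.9% (33.1 to 38.8) in late spermatocytes, 41.7% and 40.8% in round spermatids, and 32.0% and 31.5% in Leydig cells. The late spermatocyte intervals of the 2 libraries did not overlap, but the libraries fill that class from different clusters, and within each of its clusters they did overlap. The Ring1 share was 27.2% (17.9 to 38.2) and 27.4% (23.8 to 31.2) in cluster 4, 36.4% and 29.4% in cluster 2, 40% and 47.1% in cluster 0, and 83.9% (76.2 to 89.9) and 84.4% (75.5 to 91.0) in cluster 9. After that it was lower again, with 9.52% and 16.3% in cluster 12 and 3.70% and 4.76% in cluster 14. The balance of the ligases thus swung with stage in both libraries. Elongating spermatids held 5 or fewer counts of this pair in either library, too few for a share.

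**Figure D4:**
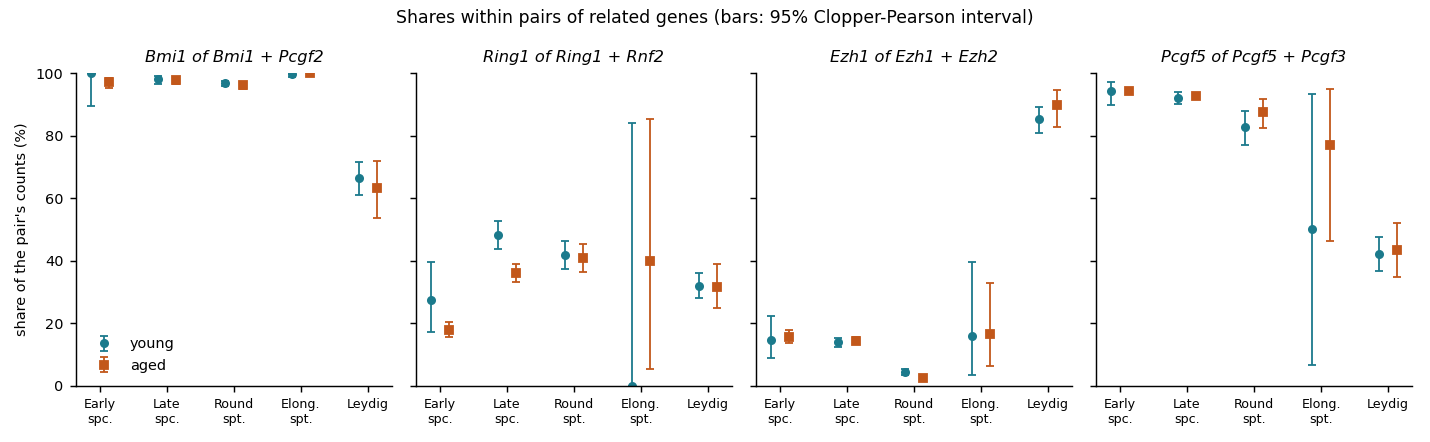
Share of the first gene in the counts of each pair of related genes (percent, 0 to 100) by class in the young (circles) and aged (squares) library; bars are exact 95% Clopper-Pearson intervals. Among the classes shown, Leydig cells stand apart for Bmi1 with Pcgf2, for Ezh1 with Ezh2 and for Pcgf5 with Pcgf3, and the wide bars of elongating spermatids reflect few counts.

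Between the ages, no member passed 1.5-fold in round spermatids or in the Leydig class as a whole. In round spermatids 0 of 10 members were 1.5-fold higher and 0 lower in the aged library, where 9.05% and 8.96% of 19440 genes were, with a median log2 ratio of 0.08. In Leydig cells 0 of the 9 measured members were higher and 0 lower, against 10.5% and 15.1% of 15297 genes (median -0.04). For Bmi1 in round spermatids the ratio of aged over young was 1.03 (0.96 to 1.11), for Ezh2 1.11 (1.04 to 1.19), and for Rnf2 in Leydig cells 0.97 (0.79 to 1.20). Single round spermatid clusters held more spread. In clusters 3 and 10, 0 of 10 members were higher or lower, against 8.38% and 9.23% of genes in cluster 3 and 8.28% and 9.16% in cluster 10. In cluster 12, 3 of 10 were higher (Pcgf2, Pcgf5 and Ring1) and 1 lower (Pcgf3), against 10.4% and 8.82%, and in cluster 14, 1 of 7 measured was higher (Scml2) and 1 lower (Pcgf1), against 10.5% and 10.6%. These calls rest on 2 to 27 counts per library. The intervals of Pcgf5 in cluster 12 (2.44, 1.12 to 5.91, on 9 and 27 counts) and of Scml2 in cluster 14 (4.76, 1.06 to 43.8, on 2 and 12 counts) lay above 1, and those of the other 4 held 1.

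The Leydig class is made up differently in the libraries: cluster 1 held 1041 young and 49 aged cells, cluster 5 held 48 and 527.

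Within these Leydig clusters more members passed the fold, on few counts in the smaller library. In cluster 1, 3 of 9 measured members were higher in the aged library and 1 lower, against 21.1% and 12.5% of 14439 genes, on 2 to 16 aged counts each. In cluster 5, 5 of 9 were higher and 1 lower, against 17.9% and 17.5% of 11788 genes, on 3 to 8 young counts each. Rnf2 was at 1.704-fold (0.96 to 2.81) in cluster 1 and 1.69-fold (0.83 to 4.02) in cluster 5, and Pcgf3 at 2.04-fold (0.96 to 3.84) and 1.20-fold (0.55 to 3.10). All 4 of these intervals hold 1. Ezh2 was among the higher members in cluster 1, on 2 aged counts, and was the lower one in cluster 5, on 4 young counts, and free RNA touches it as given above. With the same mix of both clusters the log2 ratio was 0.77 for Rnf2 and 0.83 for Pcgf3, against -0.04 and 0.19 in the summed class, and -1.09 for Pcgf6, which had 0 counts in the 49 aged cells of cluster 1.

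In late spermatocytes 3 of 10 members were higher in the aged library and 0 lower, against 11.4% and 17.0% of 20319 genes. Pcgf5 was 1.83-fold (1.69 to 1.98), Rnf2 1.77-fold (1.53 to 2.04) and Pcgf3 1.68-fold higher (1.27 to 2.25). Among the germ classes these members were highest in early spermatocytes, and the libraries filled the late class differently. Cluster 4, the earliest of it, held 52 of 752 young and 588 of 2102 aged cells. With the same mix of clusters 4, 2, 0 and 9 in both libraries, the log2 ratio was 0.31 for Pcgf5, 0.17 for Rnf2 and 0.36 for Pcgf3, and 0 members were past 1.5-fold. Within single clusters, 1 of 8 measured members was higher in cluster 4 (Pcgf3, 1.58-fold, 0.82 to 3.41) and 0 were lower, against 10.8% and 11% of genes. In cluster 2, 0 of 8 were higher or lower, against 7.27% and 9.92%. In cluster 0, 1 of 10 was higher (Pcgf2, on 4 and 6 counts) and 0 lower, against 6.96% and 10.9%, and in cluster 9, 0 of 9 were higher and 1 lower (Pcgf3, on 12 and 7 counts), against 9.04% and 8.58%. For cluster 4 the Pcgf5 ratio was 1.32 (1.13 to 1.56), in cluster 2 1.20 (1.03 to 1.40), in cluster 0 1.13 (0.97 to 1.31) and in cluster 9 1.10 (0.77 to 1.58). The call was also lost at clustering resolutions of 0.6 and 1.6 and with classes from the markers of each cell.

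In early spermatocytes 1 of 10 members, Scml2, was higher in the aged library and 0 were lower, against 12.3% and 12.1% of 12354 genes. All but 3 of its 68 counts there came from cluster 19, which the young library does not hold. With 3 counts put in place of 0 in the young library the log2 ratio was 1.06, and the exact interval of the ratio began at 1.65-fold. With the same cluster, 7, taken from both libraries there was no such call. Rnf2 was 1.48-fold higher (1.11 to 2.03), just inside the limit. Only 21 young cells entered this class.

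Elongating spermatids gave 10 counts or more over both libraries for 3 members, of which 2 were higher in the aged library, Pcgf5 and Ezh2, and 0 lower, against 17.1% and 14.4% of 7307 genes. The Pcgf5 ratio of 4.12 (0.88 to 38.7) rests on 2 young and 10 aged counts and the Ezh2 ratio of 1.55 (0.82 to 3.04) on 16 and 30, and both intervals hold 1. For Bmi1, with 471 and 534 counts, the ratio was 0.93 (0.82 to 1.06).

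**Figure D5:**
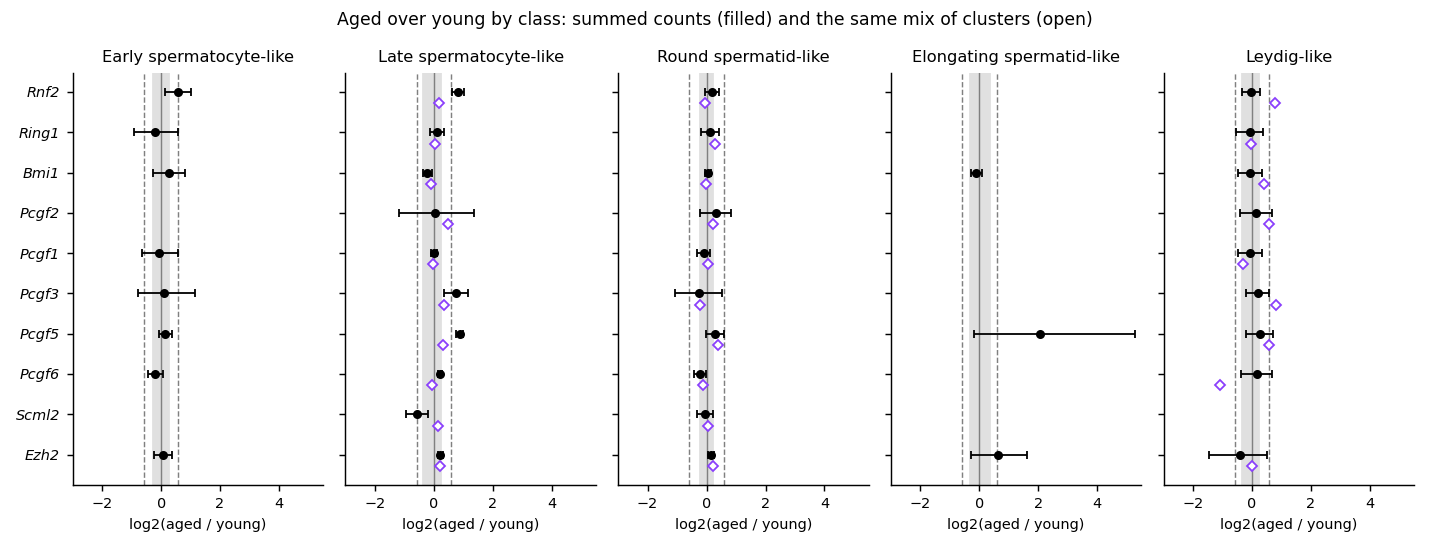
Log2 ratio of aged over young for each measured gene in the 5 classes: filled points from the summed counts with exact 95% intervals, open diamonds with the same mix of clusters in both libraries (late, round and Leydig classes), dashed lines at 1.5-fold and a grey band for the middle 50% of all genes. The 3 late spermatocyte genes past 1.5-fold lie between the dashed lines with the same mix; Scml2 and Pcgf2 in early cells have 0 young counts and are not drawn, and Leydig diamonds rest on 49 aged and 48 young cells in clusters 1 and 5.

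The other genes of the complexes, 12 of PRC2, 29 of PRC1 and 7 that oppose them, were counted in the same way. In early spermatocytes 2 of 39 measured were higher and 1 lower in the aged library, beside 12.3% and 12.1% of all genes. In late spermatocytes 4 of 45 were higher and 5 lower, beside 11.4% and 17.0%, and in round spermatids 2 and 6 of 44, beside 9.05% and 8.96%. In elongating spermatids 3 and 0 of 20 were, beside 17.1% and 14.4%, and in Leydig cells 1 and 2 of 44, beside 10.5% and 15.1%. E2f6, a repressor of the Pcgf6 complex, was 1.80-fold (0.96 to 3.59) and its dimer partner Tfdp1 1.75-fold higher (1.54 to 1.99) in aged late spermatocytes. With the same mix of clusters their log2 ratios were -0.23 and 0.13, so neither call was kept. In aged early cells Mga, the scaffold of that complex, was 1.69-fold higher (0.97 to 3.22) and the polyhomeotic gene Phc3 1.67-fold (0.69 to 5.27). In cluster 7 alone, without the aged-only cluster 19, the ratio was 1.43 (0.82 to 2.73) for Mga and 1.63 (0.67 to 5.16) for Phc3. In round spermatids Ezh1 was at 5.23 and 3.20 CPM. In Leydig cells the chromodomain gene Cbx8 was at 7.56 and 3.97 CPM and L3mbtl2 at 7.94 and 13.0 CPM.

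Rbbp7 was lower in 3 aged classes. It was at 2.59 and 1.01 CPM in late spermatocytes, at 3.43 and 1.31 CPM in round spermatids, and at 560 CPM (ratio 0.67, 0.62 to 0.71) in young against 374 CPM in aged Leydig cells. The Leydig value lies at the 1.5-fold limit, and within clusters the ratio was 0.71 (0.56 to 0.88) in cluster 1 and 0.80 (0.67 to 0.96) in cluster 5, neither past it. With the same mix of clusters the log2 ratio was -0.98 in late and -1.48 in round spermatids. Leydig markers moved with the germ cell values: summed over 11 genes they were at 97.2 and 27.5 CPM in late and at 145 and 37.5 CPM in round spermatids. Their part in the Rbbp7 values of germ cells was not tested. Bcorl1 in late spermatocytes was at 1.36 and 0.90 CPM, and at a log2 ratio of -0.03 with the same mix.

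Of the partners of Pcgf6, L3mbtl2 and Tfdp1 were lower in round spermatids than in late spermatocytes, as Pcgf6 was, in both libraries, while Mga, Max and E2f6 were not past 1.5-fold in both. L3mbtl2 was at 70.5 and 79.5 CPM in early cells, at 78.8 and 77.3 CPM in late spermatocytes and at 3.04 and 3.42 CPM in round spermatids. Tfdp1 was at 90.6 and 74.1 CPM, at 13.7 and 23.9 CPM and at 0.65 and 1.53 CPM in the same classes, and Mga at 26.2 and 44.2, at 16.7 and 17.7 and at 13.1 and 12.5 CPM. Max was at 36.3 and 34.4 CPM in early cells, at 6.16 and 10.1 CPM in late and at 4.52 and 4.15 CPM in round spermatids. E2f6 was at 4.03 CPM or less in each germ class and at 33.5 and 25.7 CPM in Leydig cells. Over all measured others, 3 of 42 were higher and 23 lower in late than in early spermatocytes, 10 and 17 of 44 in round against late, 2 and 23 of 39 in elongating against round, and 17 and 16 of 46 in Leydig against germ cells, beside the shares of all genes given above for each step.

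For the 3 members with the widest range over classes, the genes with the most similar course were found by Pearson's r of log2(CPM + 1) over the 10 class and library values, as a description. For Pcgf5 these were Zfp784 (r = 0.987), Snx27 (0.986) and Gm4204 (0.985), for Pcgf6 Eif2b5 (0.998), Ptges3l (0.998) and Taf1b (0.996), and for Rnf2 Atrip (0.989), Phf20 (0.987) and Nip7 (0.987). The points share their libraries and their scaling to the class total. Taf1b, for example, was at 209 and 209 CPM in early cells, at 100.3 and 122 CPM in late spermatocytes and at 29.5 and 31.4 CPM in round spermatids.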

How the data were processed

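Single-cell transcripts of testis were measured in 1 young and 1 aged library. The authors deposited raw counts per gene and cell, as the values show. The file header of the aged table names the BD Rhapsody pipeline 1.7.1 and STAR 2.5.2b, per the file headers, and Cell Ranger 2.11 and mm10 are named per the submitters' processing notes. These sources disagree, and whether molecules or reads were counted is not given in the sources used here. Totals were 53413783 counts in 2771 young cells and 66390904 in 6823 aged cells. The lowest total per cell was 3215 and 186, so the tables were not filtered alike, and 28.1% of the analysed aged cells lay under the lowest young total.

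Cells with at least 500 counts, 200 genes and at most 25% mitochondrial counts were kept. Called doublets (38 young, 1.37%, and 121 aged, 2.08%) were removed. Cells of both libraries were clustered together (scanpy 1.11.5, leidenalg 0.10.2, Python 3.11.15; 2000 variable genes without the Polycomb genes, 40 components, 15 neighbours, resolution 1). Clusters were named "-like" from marker lists, and 50 young (1.83%) and 1045 aged cells (18.4%) stayed unnamed. Counts were summed per class and library. Intervals were computed with scipy 1.17.1. The ratio calculation was run on simulated Poisson counts with known folds for late spermatocytes and Leydig cells. That run does not check filtering, clustering, class naming, cluster mix or free RNA. A fold against 0 counts used 3 counts. The members were taken by name and not by their values, but they, the gene lists and the markers were chosen with earlier results of these data known. All 10 members are named, and of the other Polycomb genes up to 2 per direction and class with at least 50 counts. Positions of 42251 genes came from GENCODE M21, and promoter sequences from RefSeq. Other depth filters, resolutions, class rules, thinning, scalings and count minimums were tried, and 2 further alternatives, on clusters of 1 library and on clusters left unnamed, were chosen after seeing the data.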

Additional observations from a re-analysis of the deposited data

Results flagged for a closer look

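A cluster of 19 aged cells with spermatogonial markers, which the young library did not hold and no comparison above used, carried transcripts of the members. Scml2 was at 372 CPM (262 to 513) there, on 37 counts, and Pcgf5 at 392 CPM (279 to 536), on 39 counts. Both were above the level that a count of 0 allows. Pcgf3 was at 161 CPM, Bmi1 at 171 CPM, Pcgf2 at 121 CPM and Rnf2 at 80.4 CPM in these cells, and Ring1 had 0 of 99453 counts. So small a total does not show that Ring1 is absent. With 1 library there is no replicate of these values.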

How the results depend on the processing

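Counts here are calls, summed over the 5 classes or the 4 steps, so that a gene can count more than once. The shares of all genes given above hold for the main setting. Those under the other settings are not given here, so a changed count cannot be told apart from a change over all genes. There were 6 higher and 0 lower calls of members between the ages, 12 and 14 of the other Polycomb genes, and 7 higher and 23 lower calls of members between classes. Higher calls of members between the ages numbered 3 with the lowest young total applied to both libraries, 0 at resolution 0.6 and 3 at resolution 1.6. Lower calls numbered 1 with doublets kept, 1 with classes from the markers of each cell, 4 after thinning to 2000 counts per cell, 1 with free RNA taken off and 1 with the same mix of clusters. Higher calls of the other genes numbered 21 with doublets kept, 22 with markers of each cell, 26 after thinning, 24 with each cell weighing the same, 20 at a minimum of 1 count and 7 at 50 counts, where 7 were lower. Between classes, 4 calls were higher and 14 lower after thinning, and 11 were higher with the median of ratios. Of 1080 alternative ratios between classes, 21 had the opposite sign to the reported one. In 6 of these the reported ratio was past 1.5-fold with an interval that left out 1, as follows (log2). Rnf2 in aged elongating over round spermatids went from -2.90 to 0.38 with markers of each cell. Pcgf2 there went from -0.78 to 0.76 with the median of ratios. Aged elongating spermatids had 0 counts of Pcgf2, so both values stand at the floor of 3 counts and do not show a higher level. In Leydig over germ cells, Ring1 (aged) went from 0.65 to -0.19 after thinning, and with the median of ratios Pcgf1 (young) from -0.91 to 0.069 and Pcgf5 (young) from -0.71 to 0.27. Scml2 in aged late over early spermatocytes went from -1.91 to 2.56 without clusters of 1 library, which leaves out cluster 19. Apart from the floor for Pcgf2 and cluster 19 for Scml2, the cause was not tested. Of 606 alternative age ratios of members, 560 lay inside the counting interval of the reported ratio. The other 46 lay outside it, such as Pcgf5 in late spermatocytes, from 0.87 to 0.31 (log2) with the same sign. The sign was also the opposite in 46, but these are not the same set. In all of them the reported ratio was within 1.5-fold, such as Bmi1 in round spermatids, from 0.045 to -0.009 and inside its interval. Another was Pcgf6 in Leydig cells, from 0.17 to -1.09 with the same mix of clusters. No paired analysis was possible because there was 1 library per age, and for the same reason no replicate could be left out. At resolution 0.6 no young cell was left in the early class. Depth limits the elongating class, where 7 of the 10 members had under 10 counts, and the early class, with 21 young cells.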
